A study of Mus musculus with 24 samples.

Results

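The genes described here are 10 chromatin regulators that are linked to autism in humans: Chd8, Chd2, Adnp, Pogz, Kmt2c, Kmt2e, Kmt5b, Setd5, Asxl3 and Ankrd11. They were chosen by name among the 21951 protein-coding genes of GENCODE vM21 on the main chromosomes of GRCm38. Every peak that overlapped the body of one of these genes, or the 20 kb on either side of it, was taken as belonging to its window. The 10 windows covered 1413 kb and held 286 of the 314954 peaks of the 6 peak lists. Peaks were then split into promoter peaks, which overlapped the 2000 bp before any annotated transcription start site (TSS), and peaks away from promoters, which were intronic, exonic or flanking by the position of their summit.

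The lists came from ChIP-seq of 3 transcriptional regulators (TRs), ARID1B, FOXP1 and TCF7L2, in the cortex of wild-type (WT) mice at the embryonic stages E15.5 and E18.5. For each TR and stage there were 2 biological replicates of ChIP and 2 of input chromatin (24 libraries in all), with no mutation, knockdown or treatment in any group. TCF7L2 is labelled TCF4 with the samples, and the name of its antibody is used here. Whole cortex holds many cell types, so more cells with a TR at a site and a stronger signal per cell cannot be told apart.

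ARID1B is a subunit of the BAF complex, which moves nucleosomes with the energy of ATP. FOXP1 is a forkhead protein, and TCF7L2 is an HMG-box protein that brings β-catenin to the targets of Wnt signalling. The 10 genes act on chromatin themselves: CHD8 and CHD2 are ATP-dependent remodelers, ADNP and POGZ are zinc finger proteins that bind heterochromatin protein 1, KMT2C, KMT2E, KMT5B and SETD5 carry the SET domain of histone methyltransferases, ASXL3 is a cofactor of the histone H2A deubiquitinase BAP1, and ANKRD11 is an ankyrin repeat cofactor that binds histone deacetylases.

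Per the methods of the study, the authors called 1 list on the merged replicates of each TR and stage. Each list is attached to the record of the first replicate, and that it holds the merged reads was taken from the methods and not checked otherwise. No spread between replicates can therefore be given, and no test between lists was run. Error bounds below are 95% Poisson intervals on the reads at a summit, which cover counting error only. The lists held 24872 (FOXP1, E18.5) to 71411 (ARID1B, E15.5) peaks on the main chromosomes, and the depth recovered from them (reads in the smaller of ChIP and input) ran from 26.3 M for FOXP1 at E18.5 to 80.7 M for ARID1B at E15.5. As a check of the tissue, the cortex markers Emx1, Tbr1, Neurod2, Pax6, Sox2 and Bcl11b each had a promoter peak in all 6 lists, and none of 6 markers of other tissues (Alb, Myod1, Cd3e, Ins2, Krt5 and Hbb-bs) had one in any list.

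All 3 TRs had a peak at the promoter of all 10 genes at both stages. Among all protein-coding genes, the share with a promoter peak was 58.8% for ARID1B, 61.8% for FOXP1 and 57.3% for TCF7L2 in E15.5 cortex, and 57.3%, 55% and 61.2% at E18.5. The share with a promoter peak in all 6 lists was 51.8%. All 10 genes also had a locus of overlapping peaks of the 3 TRs at their promoter at each stage, against 56.6% of protein-coding genes in E15.5 cortex and 53.8% at E18.5. The 10 genes have more annotated starts than most, with a median of 8 TSSs (range 2 to 17) against 3 over all protein-coding genes, and each TSS adds promoter sequence in which a peak can fall.

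The same held for relatives and partners of these genes. All 18 paralogs in a list (such as the other Chd genes, Kmt2a, Asxl1 and Ankrd12) and all 19 genes for subunits of complexes that hold one of the 10 proteins (such as Wdr5, Ash2l, Bap1 and Hdac3) had a promoter peak in all 6 lists. Presence of a promoter peak therefore did not separate the 10 genes from their paralogs or partners. The median fold enrichment over the 10 genes was 7.13 for ARID1B at E15.5, against 5.84 over the paralogs, 6.77 over the partners and 5.17 over all protein-coding genes with a promoter peak. Paralogs and partners had medians of 12.1 and 12.9 for FOXP1 and 7.60 and 7.23 for TCF7L2 in E15.5 cortex. At E18.5 these were 6.38 and 7.15 for ARID1B, 9.90 and 9.68 for FOXP1 and 7.99 and 7.99 for TCF7L2. The medians over the 10 genes, given below, were higher, for ARID1B at E18.5 by little over the partners (7.29 against 7.15).

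Fold enrichment sets the reads under a summit against a background that is constant over the list. For most of the 10 genes it was above the median over all genes with a promoter peak. The value of a gene, here and in the percentiles below, is the highest over all its promoters. The 10 genes have more TSSs (median 8 against 3), so their highest value is taken over more sequence, and this was not corrected for. The median over the 10 genes was 14.6 for FOXP1 and 9.22 for TCF7L2 at E15.5, where the medians over all genes with a promoter peak were 10.6 and 6.40. At E18.5, the medians over the 10 genes were 7.29 for ARID1B, 11.7 for FOXP1 and 10.0 for TCF7L2, and those over all genes were 5.61, 8.65 and 6.57. Of the 10 genes, 10, 9 and 10 stood above the median of all genes for the 3 TRs in the order given in E15.5 cortex, and 9, 10 and 10 in E18.5 cortex. Asxl3 was the exception at both points, for FOXP1 at E15.5 with 10.3 and for ARID1B at E18.5 with 5.61, which equalled the median. Levels of different TRs are not comparable, because each antibody and each depth gives its own scale.

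**Figure D1:**
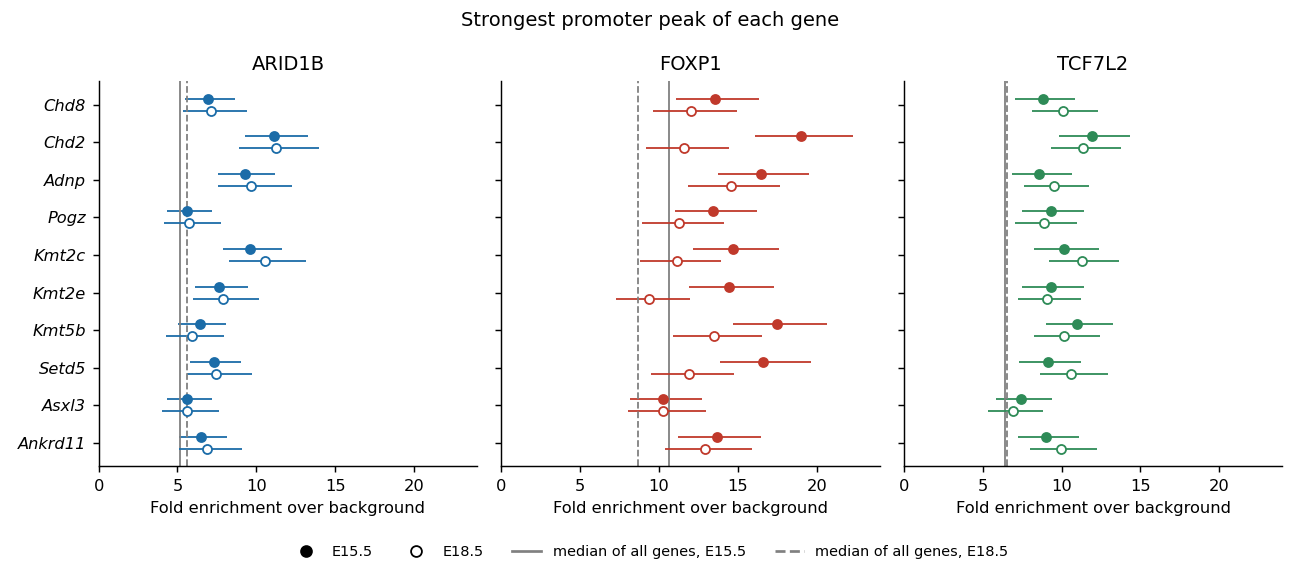
Fold enrichment of the strongest promoter peak (x axis) of each of the 10 genes (y axis) for ARID1B, FOXP1 and TCF7L2. Filled points are E15.5 and open points are E18.5, bars are 95% Poisson intervals on the summit reads, and grey lines mark the median of all protein-coding genes with a promoter peak. Chd2 stands highest for ARID1B at both stages (11.1 and 11.2), Asxl3 stands lowest for TCF7L2 at both stages (7.44 and 6.90), and the intervals of the stages lie apart for FOXP1 at Chd2 alone, a gap that closes without the pseudocount of the peak caller.

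The order of the 10 genes was nearly the same at the 2 stages for ARID1B (Spearman's rho 0.997 over the 10 genes, against 0.844 over 12303 genes). The first 4 places were held by Chd2, Kmt2c, Adnp and Kmt2e at both stages, and the last by Asxl3, which at E15.5 shared it with Pogz. For FOXP1 the order changed more (rho 0.394, against 0.858 over 12047 genes), with Chd2 and Kmt2e moving from the first and the sixth place at E15.5 to the sixth and the last at E18.5. TCF7L2 lay between (rho 0.632, against 0.913 over 12515 genes). The points of these correlations are genes measured in the same libraries, and most neighbours in each order differ by less than their counting error.

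Chd8 (chr14:52198151-52257780, minus strand) encodes the remodeler that opposes β-catenin. Its strongest promoter peak had a fold enrichment of 6.95 for ARID1B, 13.5 for FOXP1 and 8.80 for TCF7L2 in E15.5 cortex, and of 7.15, 12.04 and 10.1 at E18.5. The 6 summits lay 88 to 151 bp upstream of the 5′ end of the gene, within 63 bp of each other. A weaker promoter peak of every list marked an internal coding start in the gene body, with summits between 13.2 and 13.3 kb from the 5′ end. There the fold enrichment was 4.10 for ARID1B, 10.9 for FOXP1 and 5.88 for TCF7L2 in E15.5 cortex, and 4.21, 6.59 and 6.90 at E18.5. Only 1 peak of the window lay away from promoters, an exonic TCF7L2 peak at E18.5 with a fold enrichment of 2.63. The end of the gene met the promoter of Supt16, which encodes a subunit of the histone chaperone FACT, and of the antisense gene Gm26590, and a peak stood there in all 6 lists (5.70 for ARID1B, 11.1 for FOXP1 and 6.82 for TCF7L2 in E15.5 cortex).

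Chd2 (chr7:73426638-73541830, minus strand) encodes a second remodeler of this class, and it had the strongest promoter peak of the 10 genes in 5 of the 6 lists. At E15.5, ARID1B reached a fold enrichment of 11.1 (interval 9.27 to 13.2), FOXP1 of 19.0 (16.1 to 22.3) and TCF7L2 of 11.9 (9.86 to 14.3). Later, at E18.5, ARID1B reached 11.2 (8.91 to 13.9), FOXP1 11.6 (9.21 to 14.4) and TCF7L2 11.4 (9.31 to 13.8). These values put Chd2 at percentile 84.3 to 98.6 among all genes with a promoter peak. The peak did not lie at the 5′ end of the gene. Its 6 summits fell 3869 to 3957 bp inside it, 252 to 340 bp upstream of an internal start of a coding transcript, and 52 to 140 bp from the start of the antisense gene Gm44686, which runs the other way. Just inside the 5′ end, with summits 171 to 304 bp from it, the signal was weaker, at 3.84 for ARID1B, 6.83 for FOXP1 and 4.10 for TCF7L2 in E15.5 cortex and 4.05 for TCF7L2 at E18.5. At E18.5, FOXP1 had no peak at the 5′ end, and the nearest ARID1B peak stood 895 bp upstream with 3.23.

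The 200 bases around the FOXP1 summit at E15.5 are shown for Chd2 and Chd8 to compare the strongest remodeler promoter with the other. Both are read 5′ to 3′ on the minus strand of GRCm38, at chr7:73537788-73537987 and chr14:52257823-52258022. Capitals mark exact matches, on either strand, to the NFY motif AGCCAAT and to the SP/KLF motif GGGCGG.
Chd2 promoter: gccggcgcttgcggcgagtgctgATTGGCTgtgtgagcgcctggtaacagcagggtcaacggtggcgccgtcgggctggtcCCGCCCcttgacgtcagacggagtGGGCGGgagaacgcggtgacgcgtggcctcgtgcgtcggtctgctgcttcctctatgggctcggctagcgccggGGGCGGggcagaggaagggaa
Chd8 promoter: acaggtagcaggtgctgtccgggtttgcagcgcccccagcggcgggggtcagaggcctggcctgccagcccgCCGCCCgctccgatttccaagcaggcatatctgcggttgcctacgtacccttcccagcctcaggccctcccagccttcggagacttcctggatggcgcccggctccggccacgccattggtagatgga

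The Chd2 window holds 1 NFY match and 3 SP/KLF matches, with 70.0% G and C and 24 CpG dinucleotides. The Chd8 window holds 1 SP/KLF match, with 68.0% G and C and 15 CpG. An NFY match lay under the strongest promoter summit of 6 lists at Chd2, of 4 at Ankrd11, of 3 at Pogz and of 1 at Kmt2e, and at the other genes of none. By list, 1 to 4 of the 10 genes had one, with 4 for FOXP1 at E15.5. In windows of 100 bp the Chd2 match was lost for ARID1B and FOXP1 at E15.5, and in windows of 400 bp Ankrd11 also had a match in all 6 lists. Over all genes with a promoter peak, 4.33% to 7.44% of such windows held an NFY match and 50.2% to 59.0% an SP/KLF match. A match describes the letters only.

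Downstream of its 5′ end, Chd2 had an intronic site 17.1 kb into the gene with a peak in all 6 lists. Its fold enrichment was 4.19 for ARID1B, 5.95 for FOXP1 and 3.47 for TCF7L2 in E15.5 cortex, and 4.07, 5.56 and 3.72 at E18.5, so all intervals of the same TR overlapped between the stages. The window held 12 sites away from promoters, the most of the 10 genes, and 9 of them carried a peak in 1 list only. On the other side, the promoter of 1810026B05Rik, a long non-coding RNA known as Chaserr that lies upstream of Chd2 and limits its expression, carried a peak in all 6 lists. The fold enrichment there was 7.21 for ARID1B, 14.3 for FOXP1 and 9.42 for TCF7L2 in E15.5 cortex, and 7.71, 13.9 and 9.96 at E18.5. For FOXP1 this was above the Chd2 promoter itself at E18.5 (13.9 against 11.6) and below it at E15.5 (14.3 against 19.0). The intervals of the 2 promoters overlapped at both stages, so the change of order lies within counting error.

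Adnp (chr2:168180986-168207112, minus strand) is the shortest of the 10 genes, at 26.1 kb, and encodes a zinc finger protein that works with CHD4 and heterochromatin protein 1. The fold enrichment at its promoter was 9.26 for ARID1B, 16.5 for FOXP1 and 8.59 for TCF7L2 in E15.5 cortex, and 9.68, 14.5 and 9.52 at E18.5. It was the highest of the 10 genes for FOXP1 at E18.5. FOXP1 had no other peak in the window at either stage, but its promoter peak at E15.5 was 2855 bp wide and reached into the gene. TCF7L2 had a second, broad peak in the first intron, with its summit 0.710 kb from the 5′ end in E15.5 cortex (4.73) and 0.672 kb from it at E18.5 (4.71). ARID1B had 2 narrower peaks under it, with summits at 0.690 kb (2.95) and 1.64 kb (4.01) in E15.5 cortex, and at 0.936 kb (3.23) and 1.49 kb (3.65) at E18.5.

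Pogz (chr3:94837567-94882326, plus strand) encodes a zinc finger protein with a transposase-derived domain. Its promoter peak was among the weakest for ARID1B (5.61 in E15.5 cortex and 5.75 at E18.5) and, for TCF7L2, near the middle of the 10 genes in E15.5 cortex (9.32) and next to last at E18.5 (8.87). For FOXP1 it was 13.4 in E15.5 cortex and 11.3 at E18.5. The window held 7 sites away from promoters, of which 2 carried a peak in all 6 lists. The first lay in the first intron, 0.7 kb from the 5′ end, with 4.28 for ARID1B, 11.6 for FOXP1 and 6.40 for TCF7L2 in E15.5 cortex, and 4.77, 7.77 and 7.33 at E18.5. The second lay 16.1 kb upstream of the gene, with 5.35, 9.24 and 5.88 in E15.5 cortex, and 4.77, 7.77 and 6.35 at E18.5.

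TCF7L2 marked the Pogz gene body where the other TRs did not. It had exonic peaks 18.6 kb (5.98 in E15.5 cortex and 5.14 at E18.5) and 41.9 kb (5.04 and 4.16) from the 5′ end at both stages, where neither ARID1B nor FOXP1 had a peak at any stage. Another TCF7L2 peak, at an internal start between 26.7 and 26.8 kb, reached 7.34 in E15.5 cortex and 5.47 at E18.5. ARID1B had a weak peak there (2.59 and 3.37) and FOXP1 had none. The 2 exonic places were the only sites of the 10 windows with TCF7L2 alone at both stages. Beyond the 3′ end of Pogz, the promoter of Psmb4, which encodes a proteasome subunit, carried a peak in all 6 lists, with 4.28 for ARID1B, 12.7 for FOXP1 and 5.67 for TCF7L2 in E15.5 cortex.

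The methyltransferase gene Kmt2c (chr5:25271798-25498783, minus strand) is the longest of the 10, at 227 kb, and encodes a large subunit of complexes that methylate histone H3 lysine 4 at enhancers. The fold enrichment at its promoter was 9.61 for ARID1B, 14.7 for FOXP1 and 10.2 for TCF7L2 in E15.5 cortex, and 10.5, 11.2 and 11.3 at E18.5. These summits lay 762 to 943 bp upstream of the gene and 478 to 659 bp inside the divergent long intergenic non-coding RNA gene 4831440E17Rik. A second peak, 143 to 202 bp inside Kmt2c, stood in all 6 lists with 4.81, 7.72 and 7.65 in E15.5 cortex, and 6.17, 5.27 and 4.93 at E18.5. The rest of the long gene body was nearly bare. It had 4 sites away from promoters, all intronic, and none carried a TCF7L2 peak or a peak in more than 2 lists.

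The promoters of Pogz and Kmt2c are shown because they hold NFY and NRF1 matches, respectively, which are rare under promoter summits. The Pogz match was found for FOXP1 at both stages and for ARID1B at E18.5, and not for the other lists. Each is the 200 bases around the FOXP1 summit at E15.5 in GRCm38, at chr3:94837339-94837538 (plus strand) and chr5:25499445-25499644 (minus strand), read 5′ to 3′. Capitals mark matches on either strand to NFY (AGCCAAT), SP/KLF (GGGCGG) and NRF1 (GCATGCGC). The palindromic centre of the NRF1 site gives overlapping matches on the 2 strands, and 2 SP/KLF matches of Kmt2c stand side by side.
Pogz promoter: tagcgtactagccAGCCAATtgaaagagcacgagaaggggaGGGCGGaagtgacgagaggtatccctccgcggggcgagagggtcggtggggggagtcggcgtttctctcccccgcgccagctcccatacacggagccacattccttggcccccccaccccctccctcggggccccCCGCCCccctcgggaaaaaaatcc
Kmt2c promoter: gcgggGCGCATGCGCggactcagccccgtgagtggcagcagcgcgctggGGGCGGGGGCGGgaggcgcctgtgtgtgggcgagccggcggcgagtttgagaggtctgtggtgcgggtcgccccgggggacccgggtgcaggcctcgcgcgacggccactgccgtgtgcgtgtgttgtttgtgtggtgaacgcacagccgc

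The Kmt2c window has 74.5% G and C and 26 CpG dinucleotides, and an NRF1 match was present in the Kmt2c window of all 6 lists and of no other gene among the 10, and lay outside windows of 100 bp. NRF1 matches were in 2.97% to 4.14% of the windows of all genes with a promoter peak. The forkhead motif TGTTTAC was found at 1 of the 10 genes (Kmt2c, for 3 of the lists, and for FOXP1 at E18.5 in windows of 400 bp alone), the TCF/LEF motif TCAAAGG at 1 (Chd2), the ETS motif CCGGAAG at 1 (Ankrd11) and the YY1 motif AAGATGGC at 1 (Kmt2e). The E-box CAGATGG and the ZNF143 motif ACTACAA were found at none. Those counts take a match in any list. By list, 0 or 1 of the 10 genes had a forkhead, TCF/LEF, ETS or YY1 match. In all promoter windows, the shares by list were 0.938% to 1.37% for forkhead, 1.62% to 1.98% for TCF/LEF, 11.5% to 14.98% for ETS and 3.35% to 4.17% for YY1. They were 2.12% to 4.75% for the E-box and 1.52% to 2.41% for ZNF143.

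Kmt2e (chr5:23434441-23504235, plus strand) encodes a related SET domain protein that reads methylated histone H3. Its promoter peak had a fold enrichment of 7.66 for ARID1B, 14.4 for FOXP1 and 9.32 for TCF7L2 in E15.5 cortex, and of 7.85, 9.39 and 9.09 at E18.5. The FOXP1 value was the lowest of the 10 genes at E18.5. All 6 summits lay 1022 to 1453 bp upstream of Kmt2e and only 30 to 321 bp from a start of the long intergenic non-coding RNA gene 5031425E22Rik, which runs in the opposite direction. The FOXP1 peak at E15.5 was 4439 bp wide, the widest of the strongest promoter peaks.

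Kmt2e also had a cluster of 3 flanking sites 16.01, 18.43 and 20.15 kb upstream, the last of them at the edge of the window, and each carried peaks of all 3 TRs. The 3 sites lay within the body of the non-coding gene 5031425E22Rik, as did the other 2 flanking sites of Kmt2e, and 10 of the 17 flanking sites of the 10 genes lay in the body of another gene. The nearest carried a peak in all 6 lists, with a fold enrichment of 5.17 for ARID1B, 9.11 for FOXP1 and 5.46 for TCF7L2 in E15.5 cortex, and of 7.29, 6.88 and 6.79 at E18.5. The others carried a peak in 5 lists each, with values between 2.96 and 5.57. Of the 44 flanking peaks in the 10 windows, 21 belonged to Kmt2e.

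Kmt5b (chr19:3767421-3818303, plus strand) encodes an enzyme that dimethylates and trimethylates histone H4 lysine 20. It was the only one of the 10 genes with no peak away from promoters in any list. Its window held 11 peaks, all at its own promoters. The strongest had a fold enrichment of 6.41 for ARID1B, 17.5 for FOXP1 and 10.99 for TCF7L2 in E15.5 cortex, and of 5.89, 13.5 and 10.2 at E18.5. The gene thus ranked second for FOXP1 at both stages and eighth for ARID1B at both stages. The summits of 5 lists lay 238 to 376 bp from the 5′ end, whereas the ARID1B summit at E18.5 lay 1224 bp from it. If a summit had to lie in the promoter itself, that last value fell from 5.89 to 3.79. ARID1B alone had a weak peak at an internal start between 23.6 and 23.7 kb (3.66 in E15.5 cortex and 3.79 at E18.5).

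Setd5 (chr6:113077365-113153435, plus strand) encodes a SET domain protein found with the HDAC3 corepressor. Its promoter peak had a fold enrichment of 7.30 for ARID1B, 16.6 for FOXP1 and 9.11 for TCF7L2 in E15.5 cortex, and of 7.43, 11.9 and 10.6 at E18.5. The summits lay 115 to 231 bp upstream of Setd5 and 4 to 43 bp from an annotated start of Gt(ROSA)26Sor, the antisense non-coding gene of the ROSA26 locus. An intronic site 22.5 kb into Setd5 carried a peak in all 6 lists. There the fold enrichment was 6.95 for ARID1B, 9.49 for FOXP1 and 4.10 for TCF7L2 in E15.5 cortex, and 7.15, 5.12 and 3.61 at E18.5. ARID1B thus reached nearly the level of the promoter at this intronic site (6.95 against 7.30 and 7.15 against 7.43), while TCF7L2 stayed far below its promoter level (4.10 against 9.11 and 3.61 against 10.6). The FOXP1 intervals at this site did not overlap between the stages (7.48 to 11.9 in E15.5 cortex and 3.61 to 7.08 at E18.5), but did without the pseudocount of 1 that the peak caller adds to reads and background (8.42 to 13.5, and 4.53 to 9.24).

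Ankrd11 (chr8:122883822-123042277, minus strand) encodes the ankyrin repeat cofactor. Its promoter peak had a fold enrichment of 6.50 for ARID1B, 13.7 for FOXP1 and 9.01 for TCF7L2 in E15.5 cortex, and of 6.87, 12.9 and 9.96 at E18.5. In 5 of 6 lists the nearest start belonged to the divergent non-coding gene 2810013P06Rik. The strongest ARID1B signal in the window was not at this promoter but 110.3 kb inside the gene. There the fold enrichment was 10.6 for ARID1B (interval 8.79 to 12.7, 118 reads), 6.83 for FOXP1 and 3.58 for TCF7L2 in E15.5 cortex, and 10.8 for ARID1B (8.54 to 13.5, 76 reads), 5.56 and 4.38 at E18.5. The ARID1B interval lay above that of the Ankrd11 promoter at E15.5 (5.11 to 8.16) and overlapped it at E18.5 (5.10 to 9.07). For FOXP1 and TCF7L2 the promoter was the higher at both stages.

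Ankrd11 had 8 sites away from promoters, all in the gene body. A second site in all 6 lists lay 135.6 kb from the 5′ end, in an annotated exon, with values from 2.86 (ARID1B, E15.5) to 4.82 (FOXP1, E18.5). A site at 73.9 kb carried ARID1B (7.13 in E15.5 cortex and 5.05 at E18.5) and FOXP1 (6.83 and 3.94) at both stages and TCF7L2 at neither. ARID1B had a peak at all 8 sites, FOXP1 at 5 and TCF7L2 at 3.

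The 5 sequences below are the 200 bases around the strongest summit of sites away from promoters that carried a peak in all 6 lists, 1 for each gene with such a site. All are from GRCm38, 5′ to 3′ on the strand of the gene: Chd2 at chr7:73524589-73524788 (minus), Pogz at chr3:94821379-94821578 (plus), Kmt2e at chr5:23418335-23418534 (plus), Setd5 at chr6:113099739-113099938 (plus) and Ankrd11 at chr8:122931881-122932080 (minus). The Ankrd11 stretch overlaps an annotated exon of a protein-coding transcript of the gene, and the others touch no annotated exon. Capitals mark matches on either strand to any of the 9 motifs, all of which were SP/KLF (GGGCGG).
Chd2 intron: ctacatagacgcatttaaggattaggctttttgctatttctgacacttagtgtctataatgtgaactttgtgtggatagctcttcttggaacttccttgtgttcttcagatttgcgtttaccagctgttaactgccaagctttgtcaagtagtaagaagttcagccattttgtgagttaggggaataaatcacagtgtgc
Pogz upstream: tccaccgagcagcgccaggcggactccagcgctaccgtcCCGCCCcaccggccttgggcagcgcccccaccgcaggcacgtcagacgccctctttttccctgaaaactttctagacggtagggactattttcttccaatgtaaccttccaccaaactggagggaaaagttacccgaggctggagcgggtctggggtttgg
Kmt2e upstream: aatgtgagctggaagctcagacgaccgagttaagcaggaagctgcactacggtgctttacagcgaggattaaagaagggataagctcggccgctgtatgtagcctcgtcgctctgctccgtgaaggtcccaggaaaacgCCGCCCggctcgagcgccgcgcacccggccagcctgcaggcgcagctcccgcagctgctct
Setd5 intron: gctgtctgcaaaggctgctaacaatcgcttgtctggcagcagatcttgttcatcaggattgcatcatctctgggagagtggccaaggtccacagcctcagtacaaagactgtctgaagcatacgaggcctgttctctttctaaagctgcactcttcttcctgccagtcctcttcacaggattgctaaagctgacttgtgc
Ankrd11 gene body: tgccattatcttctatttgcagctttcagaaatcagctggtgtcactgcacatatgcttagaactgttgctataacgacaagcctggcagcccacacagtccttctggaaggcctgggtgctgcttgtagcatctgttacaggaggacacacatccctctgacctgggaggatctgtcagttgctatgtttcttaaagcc

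The upstream sites of Pogz and Kmt2e are rich in G and C (61.0% and 62.0%) with 14 and 19 CpG dinucleotides and 1 SP/KLF match each. The gene body sites shown for Chd2, Setd5 and Ankrd11 have 39%, 50% and 48.5% G and C with 1 or 2 CpG, and hold none of the 9 motifs. Of the 2 other sites with a peak in all 6 lists, the Pogz site in an intron 0.731 kb from the 5′ end has 65.5% G and C, 17 CpG and an SP/KLF match, and the Ankrd11 site at 135.6 kb has 49.5%, 4 CpG and no match. Over the 76713 sites away from promoters in the genome, the median content of G and C was 48.0%, and 7.26% held an SP/KLF match. Among the sites in all 6 lists, 3 of the 7 at the 10 genes and 17.2% of the 4731 in the genome did.

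Asxl3 encodes a Polycomb-associated cofactor with 185 kb of gene body on the plus strand. Its promoter peak was the weakest of the 10 genes in 4 lists and equal to Pogz as the weakest in another. The fold enrichment was 5.61 for ARID1B, 10.3 for FOXP1 and 7.44 for TCF7L2 in E15.5 cortex, and 5.61, 10.3 and 6.90 at E18.5, at percentile 46.6 to 70.2 among all genes with a promoter peak. The summits lay 979 to 1138 bp upstream of the 5′ end, farther from any annotated start than those of the other 9 genes. Away from its promoter, Asxl3 had 9 sites, of which 8 carried an ARID1B peak, 2 a FOXP1 peak and 2 a TCF7L2 peak. ARID1B alone was found at both stages at 4 of them, 5.8 kb upstream (4.01 in E15.5 cortex and 5.05 at E18.5) and 22.3 kb (3.04 and 2.95), 33.7 kb (3.39 and 3.79) and 63.3 kb (3.57 and 4.07) into the gene. A site at 74.2 kb reached 5.44 for ARID1B in E15.5 cortex and 3.51 at E18.5, with a FOXP1 peak of 2.91 at E15.5. The TCF7L2 peaks away from promoters had summits 0.610 and 0.981 kb into the gene in E15.5 cortex (3.16 and 3.47), and at E18.5 a TCF7L2 promoter peak 1602 bp wide overlapped both.

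Across the 10 windows, 97 of the 286 peaks were at the gene's own promoters, 51 at the promoter of another gene and 138 away from promoters (71 intronic, 23 exonic and 44 flanking). The number of all peaks in the windows was 55 for ARID1B, 49 for FOXP1 and 43 for TCF7L2 in E15.5 cortex, and 60, 30 and 49 at E18.5. This is 3.89, 3.47 and 3.04 peaks per 100 kb in E15.5 cortex and 4.25, 2.12 and 3.47 at E18.5. The windows of all protein-coding genes held 4.10, 4.08 and 2.62 per 100 kb in E15.5 cortex and 3.96, 2.04 and 3.93 at E18.5. Those values pool the windows, so long genes weigh most. By the median gene, the 10 genes had 4.29, 3.02 and 2.77 peaks per 100 kb in E15.5 cortex (3.18, 3.30 and 1.99 over all genes) and 4.73, 1.83 and 3.99 at E18.5 (3.02, 1.79 and 2.68). For ARID1B at E15.5 and TCF7L2 at E18.5 the pooled density was below that of all genes and the median above it.

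**Figure D2:**
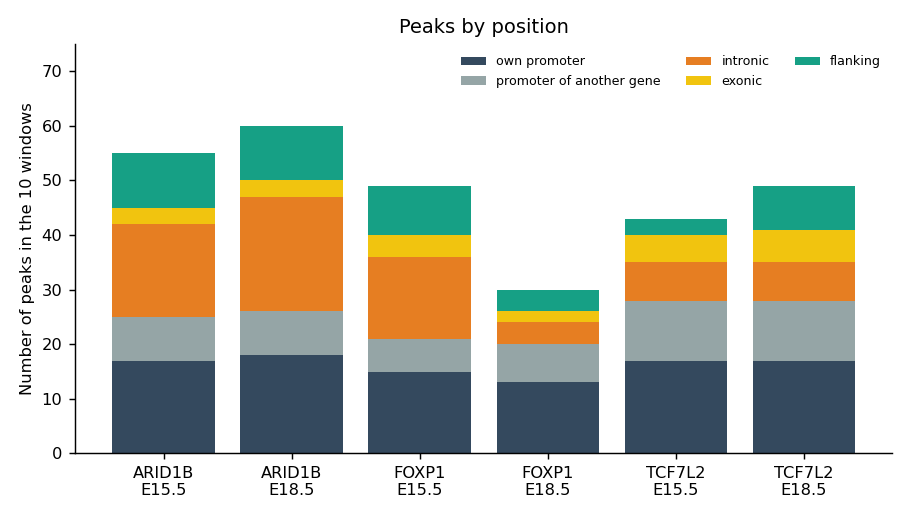
Number of peaks in the 10 windows (y axis) for each TR and stage (x axis), stacked by position. FOXP1 falls from 49 peaks at E15.5 to 30 at E18.5, with 15 and 13 peaks at the genes' own promoters and 28 and 10 away from promoters.

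Peaks away from promoters were the part that differed most between lists. They numbered 30 for ARID1B, 28 for FOXP1 and 15 for TCF7L2 in E15.5 cortex, and 34, 10 and 21 at E18.5. When only the 24872 strongest peaks of each list were kept, FOXP1 had 9 in E15.5 cortex and 10 at E18.5. At least 1 such peak was in the window of 8, 7 and 7 of the 10 genes in E15.5 cortex and of 8, 5 and 7 at E18.5. Over all protein-coding genes the shares were 50.6%, 54.1% and 34.3% in E15.5 cortex, and 49.3%, 30.3% and 47% at E18.5. The 10 genes are long, with a median of 72.9 kb against 17.4 kb, and per 100 kb the number of these peaks was 2.12, 1.98 and 1.06 at E15.5 (2.24, 2.14 and 0.940 over all genes) and 2.41, 0.708 and 1.49 at E18.5 (2.13, 0.586 and 1.83 over all genes). By the median gene, the number per 100 kb was 2.47, 1.74 and 0.899 in E15.5 cortex (0.571, 0.995 and 0 over all genes) and 2.58, 0.322 and 1.62 at E18.5 (0 over all genes for each TR). The pooled rate was below that of all genes for ARID1B and FOXP1 at E15.5 and for TCF7L2 at E18.5, whereas the median was above it in all 6 lists.

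Peaks away from promoters were shared between stages unevenly. Of the ARID1B peaks at E15.5, 25 of 30 (83.3%) overlapped an ARID1B peak at E18.5, against 74.99% of all such peaks in the list. The FOXP1 peaks of E15.5 were kept in 9 of 28 cases (32.1%, against 19.9% of the list), whereas 9 of the 10 FOXP1 peaks at E18.5 overlapped a peak of E15.5 (90.0%, against 92.3%). For TCF7L2, 14 of 15 peaks at E15.5 (93.3%, against 92.1%) and 13 of 21 at E18.5 (61.9%, against 43.9%) overlapped a peak of the other stage, and for ARID1B at E18.5 it was 26 of 34 (76.5%, against 83.0%). The lists differ in depth and length, and FOXP1 at E18.5 is both the shallowest and the shortest, so stage and depth cannot be told apart here.

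Joined over the 6 lists, the peaks away from promoters formed 54 sites, of which 26 were intronic, 11 exonic and 17 flanking. Of these sites, 7 (13.0%) carried a peak in all 6 lists and 24 (44.4%) in 1 list, against 6.17% and 37.4% of the 76713 sites in the genome. The 7 sites belonged to 5 genes: Chd2, Pogz with 2, Kmt2e, Setd5 and Ankrd11 with 2. ARID1B alone was found at 14 of the 54 sites, FOXP1 alone at 9 and TCF7L2 alone at 9, against 31.3%, 11.9% and 8.51% of the sites in the genome. A TR alone was found at both stages at 6 sites for ARID1B, at 0 for FOXP1 and at 2 for TCF7L2, against 12.8%, 0.868% and 0.63% in the genome.

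**Figure D3:**
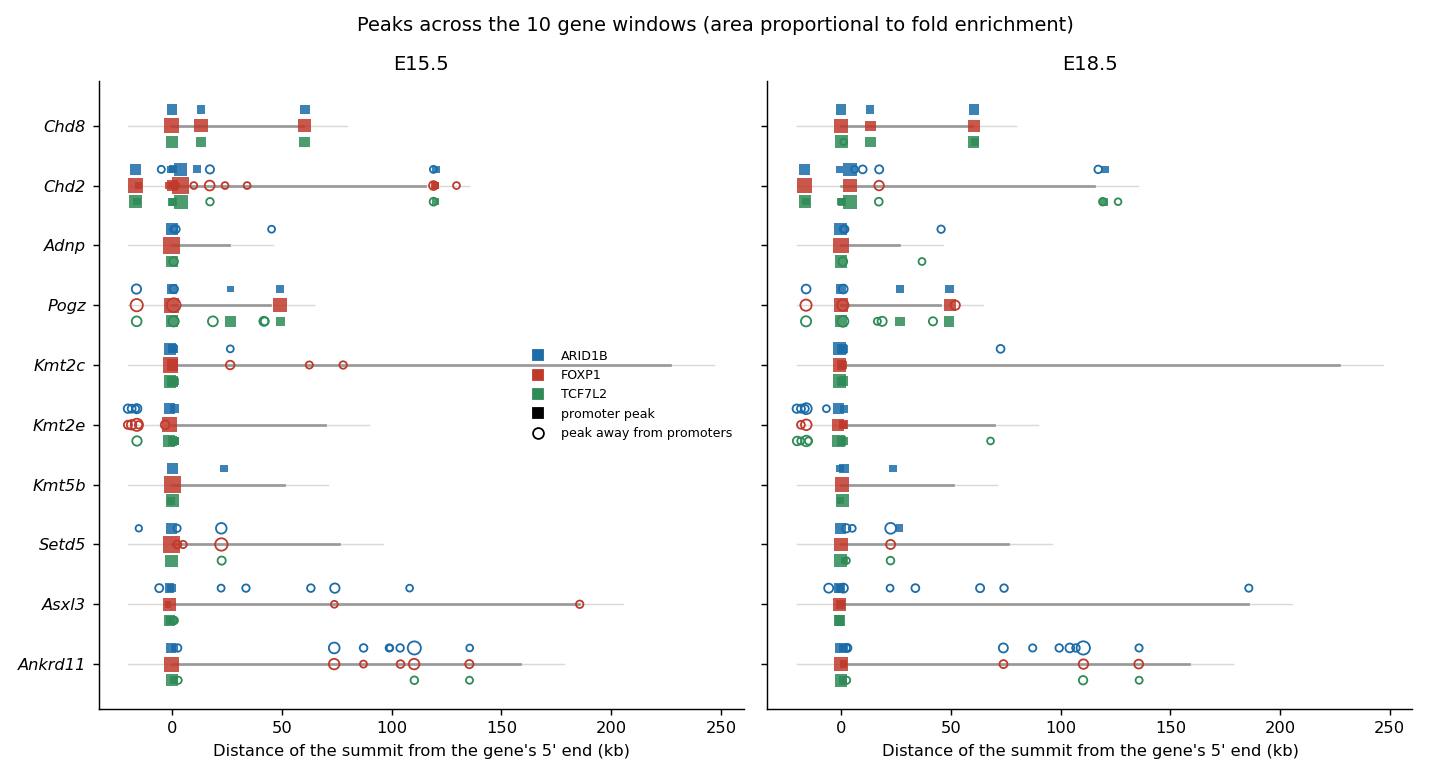
Summits of all peaks in the 10 windows by their distance from the 5′ end of the gene (x axis, kb, positive into the gene), at E15.5 (left) and E18.5 (right), with 3 rows of marks for each gene (ARID1B above, FOXP1 in the middle, TCF7L2 below). Squares are promoter peaks and open circles are peaks away from promoters, the area of a mark is proportional to fold enrichment, dark lines are gene bodies and light lines the flanks of 20 kb. The body of Kmt2c (227 kb) is nearly empty, Asxl3 shows ARID1B circles at 8 of its 9 sites, and Ankrd11 shows a large ARID1B circle at 110.3 kb.

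**Figure D4:**
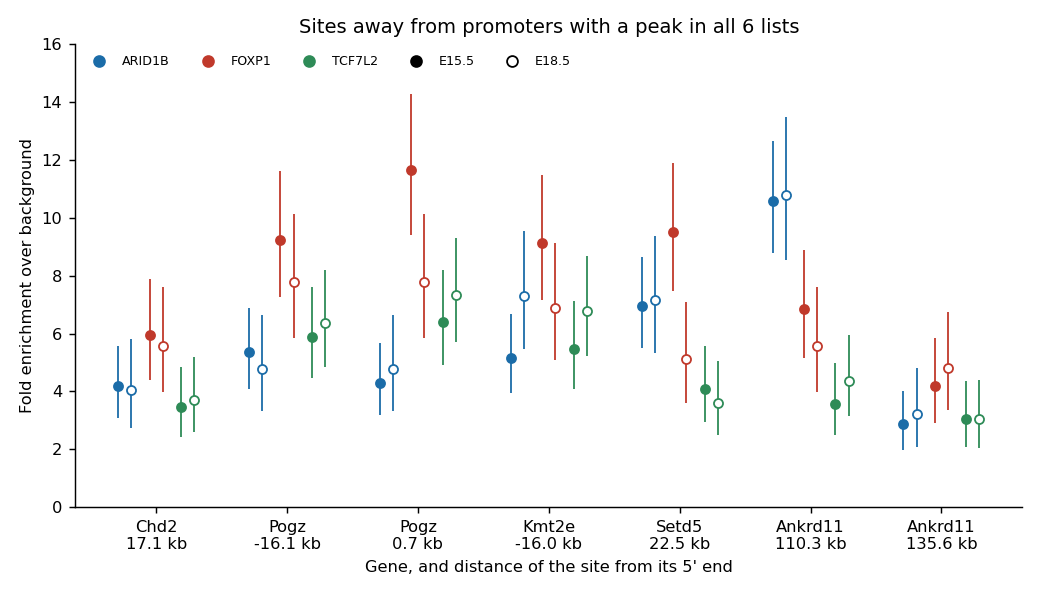
Fold enrichment (y axis) at the 7 sites away from promoters with a peak in all 6 lists (x axis, gene and distance from its 5′ end, negative upstream). Filled points are E15.5 and open points E18.5, and bars are 95% Poisson intervals on the summit reads. ARID1B stands at 10.6 and 10.8 at the Ankrd11 site 110.3 kb into the gene, and between 2.86 and 7.29 at the other 6 sites.

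Between the stages, promoter levels were compared for each TR. The FOXP1 fold enrichment was higher at E15.5 at 9 of the 10 genes, against 90.5% of the 12047 genes with a FOXP1 promoter peak at both stages. The median ratio of E18.5 to E15.5 was 0.808 over the 10 genes and 0.783 over all genes. The lowest ratio was 0.611, at Chd2 (from 19.0 to 11.6), and Asxl3 was the gene with no fall (10.3 at both stages, ratio 1.00). Chd2 was also the only gene of the 10 whose intervals at the 2 stages did not overlap (12.7% of all genes), but without the pseudocount of the peak caller they did (18.3 to 25.3 in E15.5 cortex, and 12.1 to 19.2 at E18.5), leaving 0 of the 10 genes (5.69% of all genes). Each value was also divided by the median strongest promoter fold enrichment of its list, over genes with a promoter peak at both stages. This moves all genes alike, and 4 of the 10 genes were then higher at E15.5, against 45.4% of all genes. Without the pseudocount, 6 of 10 were (70.7% of all genes).

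For ARID1B and TCF7L2 the ratios were closer to 1. ARID1B was higher at E15.5 at 2 of the 10 genes (29.4% of 12303 genes), with ratios of E18.5 to E15.5 from 0.918 (Kmt5b) to 1.09 (Kmt2c) and a median of 1.02, against 1.08 over all genes. The same division by the promoter median put ARID1B higher at E15.5 at 9 of the 10 genes, against 52.8% of all genes. It moves all genes alike. TCF7L2 was higher at E15.5 at 5 of the 10 genes (33.5% of 12515 genes), with ratios from 0.926 (Kmt5b) to 1.17 (Setd5) and a median of 1.04, against 1.06. For both TRs the intervals of the stages overlapped at all 10 genes, and they lay apart at 0.179% (ARID1B) and 0.168% (TCF7L2) of all genes. Without the pseudocount they also overlapped at all 10 genes, and lay apart at 0.244% and 0.152% of all genes.

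The place of the promoter summits was nearly constant. Within 1 gene, the strongest promoter summits of the 6 lists lay within 63 bp (Chd8) to 431 bp (Kmt2e) of each other, except for 986 bp at Kmt5b. At 5 of the 10 genes (Chd8, Adnp, Pogz, Kmt5b and Asxl3), the TSS nearest to the summit was the gene's own in all 6 lists. At Chd2, Kmt2c, Kmt2e and Setd5, it belonged to a non-coding gene on the other strand in all 6 lists, and at Ankrd11 in 5. Among the 11376 protein-coding genes with a promoter peak in all 6 lists, the nearest TSS was that of another gene in at least 1 list at 26.4%, and that of a non-coding gene on the other strand in all 6 lists at 0.844%. These shares were counted after the values of the 10 genes were seen. A peak at such a pair of starts cannot be assigned to either gene.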

How the data were processed

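Chromatin from WT mouse cortex was sequenced after ChIP for ARID1B, FOXP1 or TCF7L2, beside input. Per the labels and the methods of the study, reads were aligned to GRCm38 (mm10) with BWA 0.7.15, filtered with SAMtools (mapping quality of at least 30), and peaks were called with MACS2 2.2.7 at q below 0.01 on merged replicates. The submitters' notes also name deepTools 3.4.3.

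The deposited peak lists give, for each peak, its position, a summit offset in bases, a score, the fold enrichment (a ratio of summit reads to background, each with a pseudocount of 1), and −log10 of the p-value and q-value, as the authors' peak caller wrote them. Per the methods of the study, the local background of the peak caller was turned off. The background is therefore constant over a list, and fold enrichment is not corrected for the input reads at each site. The fold enrichment, the p-value and the summit were used, and the score and q-value were not. Summit reads were recovered from fold enrichment and p-value and gave the 95% Poisson intervals. Of the distinct read values, 100% were whole within 0.1, but the scale had been fitted to whole multiples of these same values. PCR copies count as reads, so these intervals cover counting error only.

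The 10 genes, the lists of paralogs, partners and markers, and the 9 motifs (forkhead TGTTTAC, TCF/LEF TCAAAGG, E-box CAGATGG, ETS CCGGAAG, NFY AGCCAAT, YY1 AAGATGGC, NRF1 GCATGCGC, SP/KLF GGGCGG and ZNF143 ACTACAA, on both strands) were chosen with earlier results of these data known. All 10 genes were named, and other genes where their promoter met a peak of a window or as examples of the lists. Genes and TSSs came from GENCODE vM21, an overlap needed 1 base, and sequences of 200 bases around summits came from the RefSeq copy of GRCm38. With 1 merged list per group, values were compared with the background over all genes, with no test. Scripts used Python 3.11.15, NumPy 2.4.6, pandas 2.3.3, SciPy 1.17.1, pysam 0.24.0 and matplotlib 3.10.9, and were tested on simulated data. Some of the marker genes are not reported here. Alternatives changed the p-value limit, the promoter, the TSSs, the overlap, the flank, the length of the lists, the scale and the motif window.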

Additional observations from a re-analysis of the deposited data

How the results depend on the processing

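The presence of a promoter peak at all 10 genes held in every list under each alternative promoter, overlap and peak limit tried, and 10 genes kept a locus of all 3 TRs except with summits within 200 bp of each other (7 at E15.5 and 8 at E18.5). Counts of peaks moved with the settings, and the cause was not tested beyond the construction of each setting. With −log10 p of at least 15, the windows held 22, 26 and 23 peaks (ARID1B, FOXP1, TCF7L2) in E15.5 cortex and 20, 17 and 26 at E18.5, of which 7, 10 and 5 and then 6, 3 and 6 lay away from promoters. With the 24872 strongest peaks of each list, they held 20 (ARID1B) and 25 (FOXP1) at E15.5 and 20 (ARID1B) and 31 (TCF7L2) at E18.5, with 6, 9, 6 and 9 away from promoters. FOXP1 then had 9 peaks away from promoters at E15.5 and 10 at E18.5, against 28 and 10 in the full lists. With flanks of 50 kb, the windows held 87, 94 and 67 in E15.5 cortex and 97, 52 and 93 at E18.5, with 53 (FOXP1, E15.5), 16 (FOXP1, E18.5) and 41 (TCF7L2, E18.5) away from promoters. With coding TSSs alone, 26 TCF7L2 peaks at E15.5 lay away from promoters.

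Division by the median strongest promoter fold enrichment of each list, over genes with a promoter peak at both stages, moves all genes alike. After it, 9 (ARID1B, 52.8% of all genes) and 4 (FOXP1, 45.4%) of the 10 genes were higher at E15.5. Without the pseudocount, an alternative chosen after seeing the data, 1 was for ARID1B (22% of all genes), and the FOXP1 intervals that lay apart between stages, at the Chd2 promoter and the Setd5 site, overlapped. In windows of 100 bp, the forkhead, YY1 and NRF1 motifs were found at 0 genes, and in windows of 400 bp the E-box was found at 1, ETS at 3 and YY1 at 2. These counts take a match in any list. Over all promoter windows of 400 bp, the shares by list were 3.96% to 7.17% for the E-box, 20.1% to 23.6% for ETS and 6.14% to 7.30% for YY1. NFY in all 6 lists was found at Chd2 in windows of 200 bp, at 0 genes in windows of 100 bp and at Chd2 and Ankrd11 in windows of 400 bp. Of 300 single values of fold enrichment, 299 moved by less than their interval. No paired analysis was possible because each list merged both replicates, and for the same reason no replicate could be left out. FOXP1 at E18.5 had the lowest recovered depth, with 26.3 M reads in the smaller of ChIP and input. The lowest fold enrichment listed there was 3.21, against 2.33 to 2.66 in the other lists. Whether depth accounts for this was not tested.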
